A study of Mus musculus with 4 samples.

Results

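The Notch receptors, ligands and targets studied here are 10 genes of the mouse Notch pathway, chosen by symbol from the 39170 rows of a gene expression table: the receptors Notch1, Notch2, Notch3 and Notch4, the ligands Jag1, Jag2, Dll1 and Dll4, and the target genes Hes1 and Hey1. All 10 were found, each in 1 row. Their transcripts were measured by sequencing total RNA of sorted pancreatic islet cells, in FPKM, a level per length: fragments for each kilobase of transcript, scaled to library size. Donors were MIP-GFP C57BL/6 males of 6 to 8 weeks, whose beta cells carry green fluorescent protein driven by an insulin promoter. Their insulin-positive cells were split by FACS into a low and a high gate for the glucose transporter Glut2.

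There are 4 groups: Glut2-low cells of mice given streptozocin (STZ) at 200 mg/kg, Glut2-low cells of mice given vehicle, Glut2-high cells of STZ mice and Glut2-high cells of vehicle mice. They are called Glut2L STZ, Glut2L control, Glut2H STZ and Glut2H control here. STZ is a DNA-alkylating agent that beta cells take up through Glut2, and the mice were diabetic 4 days after it. The study had 3 mice per treatment, but each group is 1 library (pooling of mice: not given in the sources used here). Replicate spread is therefore unknown, no difference was tested and every value describes these 4 libraries. The submitters regard Glut2-low insulin-positive cells as rich in multipotent progenitors of the adult pancreas.

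Notch receptors sit in the membrane and are bound by ligands of the Jagged and Delta-like families on neighbouring cells. Binding leads to cleavage by an ADAM protease and then by gamma-secretase, and the freed intracellular part joins RBPJ and Mastermind proteins in the nucleus to switch on genes of the Hes and Hey families, which are repressors. In the developing pancreas, Hes1 holds back Neurog3, the gene that starts endocrine differentiation, and Dll1 is a ligand made by cells entering that path. Notch1, Notch4, Dll4, Jag1 and Hey1 are also well known from endothelial cells and Notch3 from the mural cells around vessels.

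The transcript of Glut2 went against the gate labels. Whether the labels were exchanged was not tested, and if they were, every difference between gates given here would change sign. Slc2a2 stood at 33.7 FPKM in the library labelled Glut2L STZ and 41.0 in that labelled Glut2L control, against 10.8 and 8.74 FPKM in those labelled Glut2H STZ and Glut2H control. Ins2 stood at 175841 and 294540 FPKM in the libraries labelled Glut2L STZ and Glut2L control, against 52596 and 57345 FPKM in those labelled Glut2H STZ and Glut2H control. Of 12 beta cell markers, 10 in STZ mice and 12 in control mice were higher by 2-fold or more under the Glut2L label. Of all measured genes, 22.9% in STZ mice and 19.7% in control mice were. Endothelial markers summed to 15.9 and 36.5 FPKM in the libraries labelled Glut2L STZ and Glut2L control, against 261 and 299 FPKM in those labelled Glut2H STZ and Glut2H control. Mural and stromal markers summed to 28.4 and 67.1 against 846 and 964 FPKM in the same order, and immune markers to 138 and 104 against 3208 and 2946 FPKM. How many reads each library held is unknown. Of the summed FPKM, 1 short predicted gene, Gm20594, took 68.5% in the library labelled Glut2H STZ and 61.0% in that labelled Glut2H control.

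Among the ligands, the libraries labelled Glut2L and Glut2H held different family members. Jag2 and Dll1 were higher under the Glut2L label in both STZ and control mice, and Jag1 was lower in both. Dll4 was near 1 FPKM or below in every library. Between STZ and control mice of a gate, Jag1, Jag2 and Dll1 stayed within 2-fold.

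Jag2 (ENSMUSG00000002799, GRCm38 chromosome 12, 112907819 to 112929776) encodes a Jagged ligand. It stood at 6.03 FPKM in the library labelled Glut2L STZ and 5.62 FPKM in that labelled Glut2L control, against 1.32 and 1.44 FPKM in those labelled Glut2H STZ and Glut2H control. Both libraries labelled Glut2L were thus above both labelled Glut2H. The difference on the log2 scale of FPKM plus 1, used for every log2 value here, was 1.60 in STZ mice and 1.44 in control mice.

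Dll1 (ENSMUSG00000014773, chromosome 17, 15367354 to 15376872), a Delta-like ligand, was also above in both libraries labelled Glut2L. Its level was 7.43 FPKM in the library labelled Glut2L STZ and 6.51 in that labelled Glut2L control, against 1.40 and 1.33 FPKM in those labelled Glut2H STZ and Glut2H control. The log2 difference was 1.81 in STZ mice and 1.69 in control mice. A long noncoding gene on the opposite strand, A930024N18Rik, shares the Dll1 locus in the table and did not exceed 0.455 FPKM. The beta cell marker list, which was higher in the same libraries, had a median log2 difference of 1.47 in STZ mice and 1.82 in control mice, and its part in the 2 ligands was not tested.

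Jag1 (ENSMUSG00000027276, chromosome 2, 137081456 to 137116644), the Jagged ligand of ducts and vessels, ran the other way. It was measured at 2.62 FPKM in the library labelled Glut2L STZ and 3.72 in that labelled Glut2L control, against 21.6 and 18.4 FPKM in those labelled Glut2H STZ and Glut2H control. The log2 difference between gates was -2.64 in STZ mice and -2.04 in control mice. Endothelial markers had a median log2 difference of -2.73 in STZ mice and -2.88 in control mice, mural and stromal markers -3.68 and -3.00, and immune markers -4.46 and -4.30. The duct marker list was mixed, with medians of 1.11 in STZ mice and 1.05 in control mice. In STZ mice, 7 of 12 measured duct markers were 2-fold or more higher and 2 lower, beside 22.9% and 17.8% of all measured genes. In control mice 6 of 11 were higher and 2 lower, beside 19.7% and 18.5%. The lower duct markers were Spp1 and Car2 in both treatments. The part of these lists in the Jag1 difference was not tested, and in bulk samples fewer cells of a type and less RNA per cell cannot be told apart.

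Dll4 (ENSMUSG00000027314, chromosome 2, 119325784 to 119335962), a Delta-like ligand of endothelial tip cells, was the ligand with the lowest mean. It stood at 1.07 and 0.235 FPKM in the libraries labelled Glut2L STZ and Glut2L control, against 0.648 and 1.24 FPKM in those labelled Glut2H STZ and Glut2H control. On the log2 scale of FPKM plus 1, which understates differences at such levels, the gate difference was 0.33 in STZ mice and -0.86 in control mice. The control value passed 2-fold with a pseudocount of 0.1 (-2.00) and with values centred on the all-gene median (-1.01). STZ against control in the libraries labelled Glut2L gave 0.74, and 1.80 with a pseudocount of 0.1. A gene on the opposite strand that overlaps its start, Gm14207, was at 2.35 FPKM in the library labelled Glut2L STZ and listed at 0 in the other 3.

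Per length, the 4 ligands together came to 17.2 and 16.1 FPKM in the libraries labelled Glut2L STZ and Glut2L control, against 24.9 and 22.4 FPKM in those labelled Glut2H STZ and Glut2H control. Dll1 and Jag2 made up 78.5% and 75.4% of these sums in the libraries labelled Glut2L STZ and Glut2L control, against 10.9% and 12.4% in those labelled Glut2H STZ and Glut2H control. Jag1 made up 15.3% and 23.1% in the libraries labelled Glut2L STZ and Glut2L control, against 86.5% and 82.1% in those labelled Glut2H STZ and Glut2H control. As deposited, the summed ligand level therefore differed less between gates than its make-up did. Rescaling the libraries would change these sums but not the percentages.

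**Figure D1:**
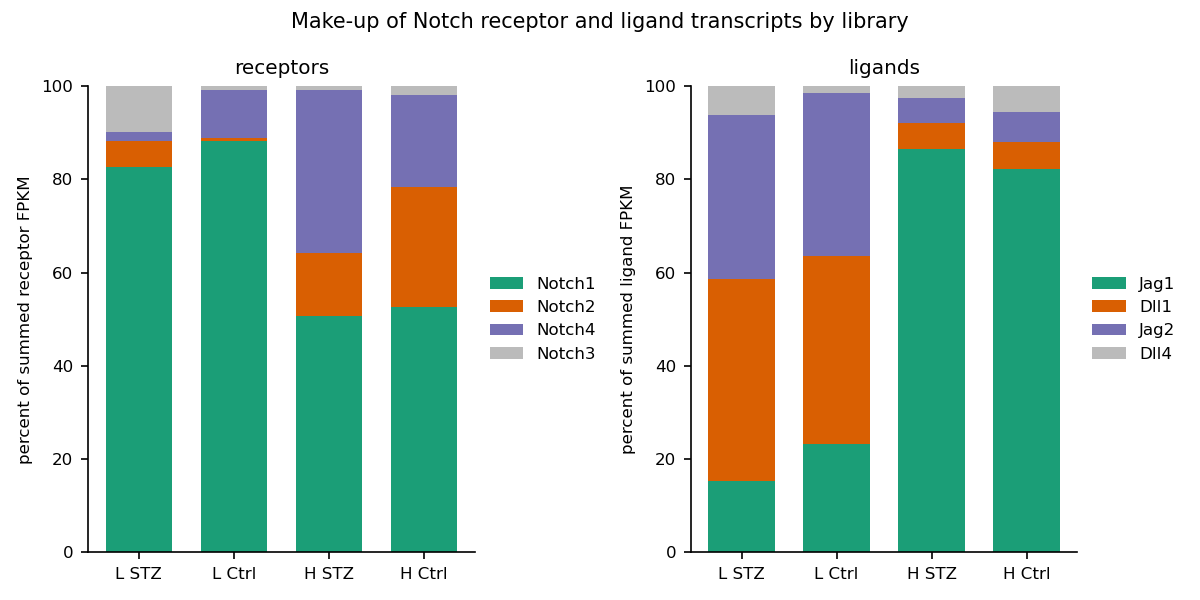
Stacked bars give each gene's percent of the summed FPKM of the 4 receptors (left) and the 4 ligands (right) in each library, with L for libraries labelled Glut2L and H for those labelled Glut2H. Jag1 takes 86.5% and 82.1% of the ligand sum in the libraries labelled Glut2H STZ and Glut2H control, while Dll1 and Jag2 together take 78.5% and 75.4% in those labelled Glut2L STZ and Glut2L control.

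The promoter windows of the 4 members that differed in the same direction in both gate pairs and have an entry in RefSeq (GRCm38.p6) are shown next, from 250 bases before to 50 after the annotated start, 5' to 3' on the gene's strand. They let the pair that was higher in the libraries labelled Glut2L (Jag2, Dll1) be read beside the pair that was lower (Notch2, Jag1). Capitals mark CG dinucleotides. The windows are chr12:112929446-112929745 (minus strand) for Jag2, chr17:15376883-15377182 (minus) for Dll1, chr3:98013288-98013587 (plus) for Notch2 and chr2:137116471-137116770 (minus) for Jag1. For Dll1, of its 2 entries the one nearest to the GENCODE start was taken.
Jag2: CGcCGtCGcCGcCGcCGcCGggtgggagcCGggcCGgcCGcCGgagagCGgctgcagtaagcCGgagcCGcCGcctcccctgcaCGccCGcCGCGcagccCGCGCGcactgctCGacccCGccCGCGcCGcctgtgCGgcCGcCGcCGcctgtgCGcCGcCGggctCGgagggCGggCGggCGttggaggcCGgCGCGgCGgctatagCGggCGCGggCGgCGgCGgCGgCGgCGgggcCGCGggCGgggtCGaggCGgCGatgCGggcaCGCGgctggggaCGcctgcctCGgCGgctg
Dll1: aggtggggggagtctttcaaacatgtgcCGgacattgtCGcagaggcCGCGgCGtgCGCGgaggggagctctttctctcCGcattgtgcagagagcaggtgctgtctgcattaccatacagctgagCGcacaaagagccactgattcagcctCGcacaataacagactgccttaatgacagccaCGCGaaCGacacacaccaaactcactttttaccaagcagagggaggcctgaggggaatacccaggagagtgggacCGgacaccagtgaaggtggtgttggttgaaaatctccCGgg
Notch2: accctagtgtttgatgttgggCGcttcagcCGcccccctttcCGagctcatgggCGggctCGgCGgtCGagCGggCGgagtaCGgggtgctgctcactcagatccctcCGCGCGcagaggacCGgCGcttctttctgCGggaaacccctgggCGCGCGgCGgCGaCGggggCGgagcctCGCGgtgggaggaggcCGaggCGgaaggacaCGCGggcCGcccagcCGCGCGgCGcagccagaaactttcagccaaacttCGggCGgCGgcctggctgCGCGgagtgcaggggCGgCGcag
Jag1: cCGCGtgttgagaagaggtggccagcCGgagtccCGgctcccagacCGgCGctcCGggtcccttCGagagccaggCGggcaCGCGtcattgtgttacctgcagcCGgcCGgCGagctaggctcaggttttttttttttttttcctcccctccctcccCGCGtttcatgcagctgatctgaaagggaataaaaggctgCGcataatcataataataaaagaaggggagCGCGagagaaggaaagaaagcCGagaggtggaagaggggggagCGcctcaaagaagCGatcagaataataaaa

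CG dinucleotides numbered 63 in the Jag2 window and 15 in that of Dll1, against 41 in that of Notch2 and 22 in that of Jag1, where the median of 32851 mouse promoter windows of the same length was 7. The other Dll1 window held 24. The count therefore did not order the genes by their gate difference. A search on both strands for TGGGAA, the core letters bound by RBPJ, found no match in the windows of the 8 members with an entry, and 25.6% of all windows hold it. This says only that those letters are not in these windows. The targets Hes1 and Hey1 have no entry and were not searched. The start sites of the printed windows lie 281 (Jag2), 60 (Dll1), 11 (Notch2) and 124 (Jag1) bases from the GENCODE start. That of the Notch1 window, which is not printed, lies 12841 bases from it. The Jag2 and Notch1 windows do not contain the GENCODE start.

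The receptors fell into 3 patterns. Notch2 was lower under the Glut2L label in both STZ and control mice, Notch1 and Notch4 were far lower after STZ in the libraries labelled Glut2L and not in those labelled Glut2H, and Notch3 was below 1 FPKM in all 4 libraries. Notch1 had the highest level of the 4 receptors in every library.

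Notch2 (ENSMUSG00000027878, chromosome 3, 98013527 to 98150361), the receptor that marginal zone B cells need, stood at 0.395 and 0.623 FPKM in the libraries labelled Glut2L STZ and Glut2L control, against 7.64 and 8.54 FPKM in those labelled Glut2H STZ and Glut2H control. The log2 difference between gates was -2.63 in STZ mice and -2.55 in control mice. STZ and control libraries of the same gate label stayed close together. The authors' deposited intervals of Notch2, whose level is not stated, did not overlap between gates in either treatment, and Jag1 in STZ mice was the other member for which this held.

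Notch1 (ENSMUSG00000026923, chromosome 2, 26457903 to 26516663) stood at 5.87 FPKM in the library labelled Glut2L STZ and 82.4 in that labelled Glut2L control, and at 28.7 FPKM in the library labelled Glut2H STZ and 17.3 in that labelled Glut2H control. The libraries labelled Glut2L thus held both the lowest and the highest value, with those labelled Glut2H in between. STZ against control gave a log2 value of -3.60 in the libraries labelled Glut2L and 0.70 in those labelled Glut2H. Glut2L against Glut2H gave -2.11 in STZ mice and 2.19 in control mice, so the gate difference had opposite signs in the STZ and control pairs.

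The Notch1 values were wide. The deposited interval ran from 1.26 to 13.0 FPKM in the library labelled Glut2L STZ and from 3.66 to 159 FPKM in that labelled Glut2L control, so the 2 overlap. A noncoding gene on the opposite strand that overlaps the end of Notch1, 0610009E02Rik, had the same order of libraries: it stood at 0.435 and 6.49 FPKM in the libraries labelled Glut2L STZ and Glut2L control, and at 5.20 and 0.814 FPKM in those labelled Glut2H STZ and Glut2H control. The library kit is stranded, but the strand setting of the counting (not given in the sources used here) could mix both genes, and the share of reads from either gene was not tested.

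Notch4 (ENSMUSG00000015468, chromosome 17, 34564268 to 34588503), a receptor of endothelial cells, stood at 0.133 FPKM in the library labelled Glut2L STZ and 9.59 in that labelled Glut2L control, and at 19.8 FPKM in the library labelled Glut2H STZ and 6.43 in that labelled Glut2H control. STZ against control gave -3.22 in the libraries labelled Glut2L and 1.49 in those labelled Glut2H. Between gates the log2 difference was -4.20 in STZ mice and 0.51 in control mice, where FPKM rescaled to an equal sum gave 1.25. The deposited interval in the library labelled Glut2L STZ ran from 0 to 2.98 FPKM and overlapped that of the library labelled Glut2L control, from 0.147 to 19.98 FPKM.

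Other markers also differed between STZ and control in the libraries labelled Glut2L, as Notch1 and Notch4 did. Acinar markers summed to 362 FPKM in the library labelled Glut2L STZ, against 3135 FPKM in that labelled Glut2L control, and to 4249 FPKM in the library labelled Glut2H STZ, against 3940 FPKM in that labelled Glut2H control. After STZ in the libraries labelled Glut2L, 11 of 11 measured acinar and 3 of 7 measured endothelial markers were lower by 2-fold or more. Their medians were -3.23 and -0.95, and 11.1% of all measured genes were that much lower. In the libraries labelled Glut2H, 0 of 11 acinar and 3 of 12 endothelial markers were lower, beside 13.8% of all measured genes. Higher there were 1 of 11 and 0 of 12, beside 9.62%. Their medians were 0.01 and -0.55, where Notch4 gave 1.49. The endothelial markers Cdh5, Tek, Tie1, Cldn5 and Erg were under 1 FPKM in both libraries labelled Glut2L and so were not measured there. The sort was for insulin-positive cells, and the part of acinar and endothelial RNA in the receptor values was not tested.

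Notch3 (ENSMUSG00000038146, chromosome 17, 32120820 to 32166852), the receptor of mural cells, ranged from 0.451 to 0.732 FPKM over the 4 libraries and was not measured in any comparison under the filter of 1 FPKM. Mural and stromal markers were nevertheless present, at a median of 27.2 and 20.1 FPKM in the libraries labelled Glut2H STZ and Glut2H control. Summed over the 4 receptors, the level was 7.10 FPKM in the library labelled Glut2L STZ and 93.3 in that labelled Glut2L control, and 56.6 FPKM in the library labelled Glut2H STZ and 32.9 in that labelled Glut2H control. Notch1 made up 82.6%, 88.3%, 50.7% and 52.5% of these sums.

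**Figure D2:**
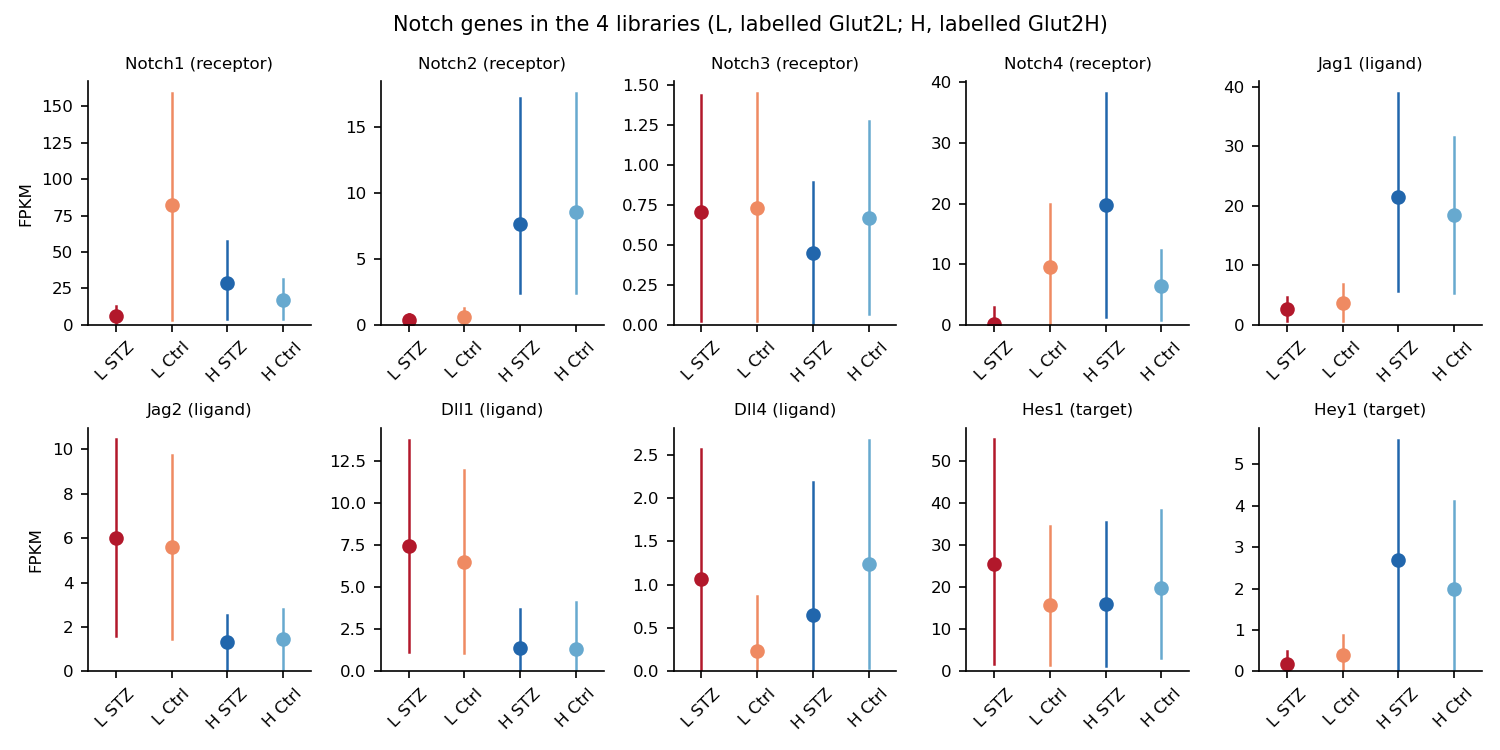
Points give the FPKM of each gene in each library, with L for libraries labelled Glut2L and H for those labelled Glut2H, and vertical lines give the deposited interval. Jag2 and Dll1 sit higher in both L libraries and Notch2, Jag1 and Hey1 in both H libraries, while Notch1 and Notch4 are lowest in the library labelled Glut2L STZ.

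Of the targets, Hes1 had much the same level in all libraries and Hey1 followed the gates. Hes1 (ENSMUSG00000022528, chromosome 16, 30064384 to 30067796), the repressor that restrains Neurog3, stood at 25.4 FPKM in the library labelled Glut2L STZ and 15.9 in that labelled Glut2L control, and at 16.0 FPKM in the library labelled Glut2H STZ and 19.8 in that labelled Glut2H control. Each comparison was within 2-fold, with log2 values from -0.30 to 0.65. For the gates in STZ mice, FPKM rescaled to an equal sum gave 1.71, and the trimmed sum gave 0.58. At these levels Hes1 was above 65.0% to 76.9% of the protein-coding genes with at least 1 FPKM in the same library. Neurog3, named after its values were seen, was at 1.45 and 1.54 FPKM in the libraries labelled Glut2L STZ and Glut2L control, against 0.433 and 1.76 FPKM in those labelled Glut2H STZ and Glut2H control.

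Hey1 (ENSMUSG00000040289, chromosome 3, 8663359 to 8667256), a repressor prominent in endothelium, stood at 0.177 and 0.390 FPKM in the libraries labelled Glut2L STZ and Glut2L control, against 2.68 and 1.99 FPKM in those labelled Glut2H STZ and Glut2H control. Both libraries labelled Glut2L were below both labelled Glut2H. The log2 difference between gates was -1.64 in STZ mice and -1.10 in control mice. In control mice, FPKM rescaled to an equal sum gave -0.75, and the trimmed sum gave -1.13. Endothelial, mural and immune markers moved the same way, and their part in Hey1 was not tested.

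Over the members, 9 of 10 were measured between gates in each treatment. In STZ mice, Glut2L over Glut2H reached 2-fold upward for 2 of 9, beside 22.9% of all measured genes, and downward for 5 of 9, beside 17.8%. In control mice it did so upward for 3 of 9, beside 19.7%, and downward for 3 of 9, beside 18.5%. The median of the measured members was -1.64 in STZ mice and -0.30 in control mice, beside 0.23 and 0.15 for all measured genes. Jag2 and Dll1 were higher and Notch2, Jag1 and Hey1 lower in both treatments.

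STZ against control gave fewer differences. In the libraries labelled Glut2L, 0 of 7 measured members reached 2-fold upward after STZ, beside 10.2% of all measured genes, and Notch1 and Notch4, 2 of 7, were lower, against 11.1%. In the libraries labelled Glut2H, Notch4 alone, 1 of 9, was higher, against 9.62% of all measured genes, and 0 of 9 were lower, against 13.8%. Medians of the members were 0.09 in the libraries labelled Glut2L and 0.04 in those labelled Glut2H, and those of all measured genes 0.0042 and -0.07. With 1 library per group there is no adjusted p for these counts. Notch2 and Hey1 were under 1 FPKM in both libraries labelled Glut2L and so were not measured there.

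**Figure D3:**
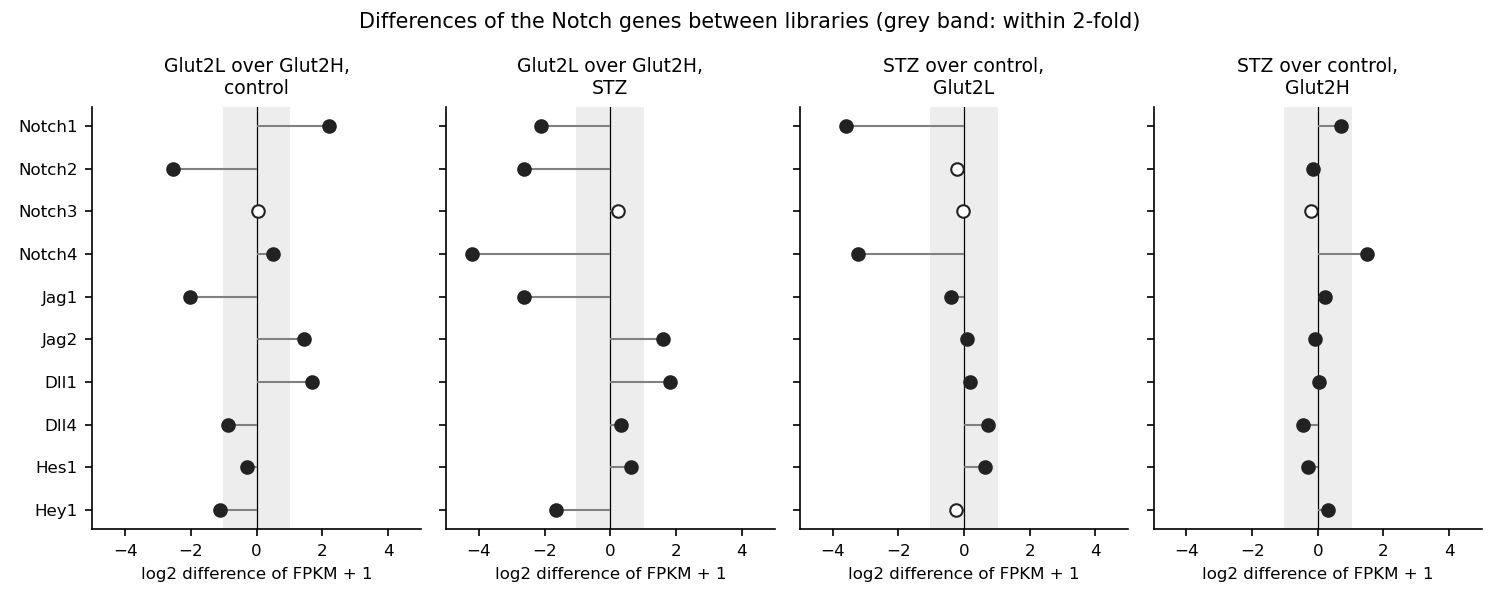
Each panel gives 1 comparison, with the log2 difference of FPKM plus 1 on the horizontal axis and a row per gene. Filled points were measured and open points were under 1 FPKM in both libraries. Notch1 and Notch4 reach -3.60 and -3.22 for STZ against control in the libraries labelled Glut2L, while the ligands lie inside the 2-fold band in both STZ comparisons.

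Genes with the closest profiles to each member were looked for among 10127 protein-coding genes, by the distance between log2 values centred on each gene's own mean over the 4 libraries. Jag2 was closest to Scg3 (distance 0.022), Abcc8 (0.038) and Ang (0.060), and Dll1 to Camk2n1 (0.046), Tnk1 (0.078) and Scg2 (0.085). Jag1 was closest to Tgif1 (0.053), Arpc1b (0.091) and Stard9 (0.104), and Notch2 to Acvrl1 (0.090), Tgfb1i1 (0.090) and Emilin2 (0.091). Hes1 was nearest to Mum1, Snapin and Ncoa2, at distances from 0.055 to 0.070. Notch1 and Notch4 had no close neighbour: the nearest were Mad2l2, Cdpf1 and Camta1 for Notch1, at 0.684 to 0.790, and Prss2, Reg1 and Gm10130 for Notch4, at 0.626 to 0.729. Prss2 and Reg1 are genes of acinar cells. With 4 libraries many genes share a profile, so this is a description.

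**Figure D4:**
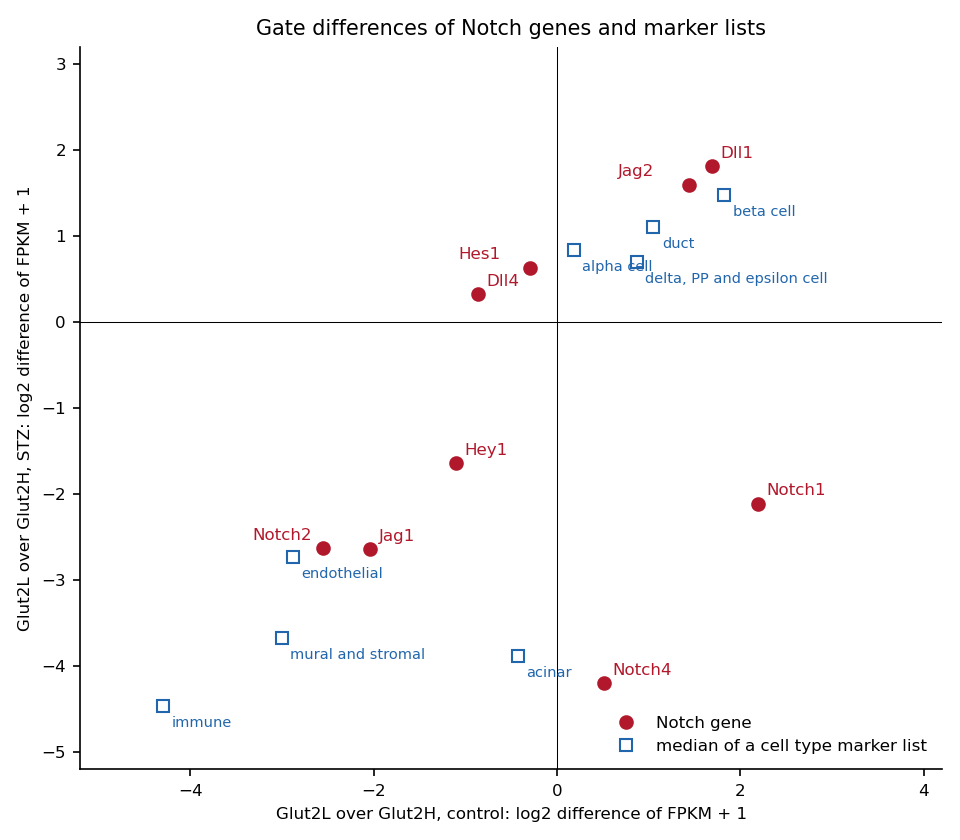
The log2 difference of Glut2L over Glut2H is shown for control mice on the horizontal and STZ mice on the vertical axis, for the 9 measured Notch genes (filled circles) and the medians of 8 cell type marker lists (open squares). Jag2 (1.44 and 1.60) and Dll1 (1.69 and 1.81) lie by the beta cell list, Notch2 and Jag1 by the endothelial list (-2.88 and -2.73), and Notch1 and Notch4 lie at lower right.

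The rest of the pathway was described from 9 lists of 75 genes in the table. Under the Glut2L label, 13 of 59 measured genes in STZ mice and 3 of 57 in control mice were higher by 2-fold or more, and 7 of 59 and 8 of 57 were lower. These are shares of 22.0% and 5.26% higher, beside 22.9% and 19.7% of all measured genes, and of 11.9% and 14.0% lower, beside 17.8% and 18.5%. After STZ, 3 of 56 (5.36%) were higher and 0 lower in the libraries labelled Glut2L, beside 10.2% and 11.1% of all measured genes. In those labelled Glut2H, 2 of 57 (3.51%) were higher and 8 of 57 (14.0%) lower, beside 9.62% and 13.8%. Medians over these genes were 0.14 for the gates in STZ mice, -0.12 for the gates in control mice, 0.09 for STZ in the libraries labelled Glut2L and -0.25 for STZ in those labelled Glut2H.

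Of the other ligands, only Dlk1, which encodes a Delta-like protein without the domain that activates receptors, reached 5 FPKM. It stood at 23.7 FPKM in the library labelled Glut2L STZ and 8.57 in that labelled Glut2L control, against 2.02 FPKM in the library labelled Glut2H STZ and 5.58 in that labelled Glut2H control. STZ against control thus gave 1.37 under the Glut2L label and -1.12 under the Glut2H label.

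Among 12 other targets and basic helix-loop-helix repressors, Hes6, which encodes an antagonist of Hes1, stood at 25.4 and 19.2 FPKM in the libraries labelled Glut2L STZ and Glut2L control, and at 6.35 and 23.6 FPKM in those labelled Glut2H STZ and Glut2H control. The library labelled Glut2H STZ alone was low. Bhlhe40, a stress-responsive repressor, was highest there, at 54.6 FPKM, against 22.0 FPKM in the library labelled Glut2H control, and stood at 18.4 and 14.6 FPKM in those labelled Glut2L STZ and Glut2L control. Hes5, Hey2, Heyl and Nrarp, classic Notch targets named after their values were seen, did not exceed 1.06 FPKM in any library.

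Among genes that modify the receptors on their way to the surface, Lfng, a fringe glycosyltransferase gene, was at 0.0576 and 0.253 FPKM in the libraries labelled Glut2L STZ and Glut2L control, against 2.78 and 5.67 FPKM in those labelled Glut2H STZ and Glut2H control. Furin, which cuts the receptor precursor, had the highest mean of this list, at 13.4 to 26.5 FPKM. Of the proteases that release the intracellular part, Adam10 stood at 30.1 and 28.7 FPKM in the libraries labelled Glut2L STZ and Glut2L control, and at 14.0 and 29.7 FPKM in those labelled Glut2H STZ and Glut2H control. Of the 7 cleavage genes measured in the libraries labelled Glut2H, Adam10 was the 1 lower by 2-fold or more after STZ, a share near the 13.8% of all measured genes.

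Mib2, a ubiquitin ligase that drives ligand endocytosis, was higher in the libraries labelled Glut2L, at 27.4 FPKM in STZ and 37.3 FPKM in control mice, against 11.0 and 15.6 FPKM in those labelled Glut2H. Epn1, the highest gene of that list by mean, ranged from 29.0 to 50.8 FPKM and stayed within 2-fold. Dtx3, a gene of the Deltex family, was higher in the libraries labelled Glut2L too, at 37.6 and 36.9 FPKM in STZ and control mice, against 17.4 and 9.13 FPKM in those labelled Glut2H. Its relative Dtx4 was lower, at 0.581 and 1.29 FPKM against 4.52 and 5.08 FPKM in the same order.

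In the nuclear complex, Kat2b, a histone acetyltransferase, stood at 24.8 and 28.7 FPKM in the libraries labelled Glut2L STZ and Glut2L control, and at 11.6 and 24.3 FPKM in those labelled Glut2H STZ and Glut2H control. Rbpj, the DNA-binding partner of the receptors and named after its values were seen, was at 4.23 and 2.59 FPKM in the libraries labelled Glut2L STZ and Glut2L control, against 7.40 and 6.98 FPKM in those labelled Glut2H STZ and Glut2H control. The corepressor gene Ncor1 was the highest of its list, from 104 to 140 FPKM. Cir1, a corepressor that binds RBPJ, was at 2.44 FPKM in the library labelled Glut2H STZ and between 9.96 and 11.7 FPKM in the other 3. Tle2, a Groucho corepressor, stood at 12.5 FPKM in the library labelled Glut2L STZ and 2.75 in that labelled Glut2L control, and at 7.26 and 4.85 FPKM in those labelled Glut2H STZ and Glut2H control.

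The other genes that passed the naming rule were Dtx2, which was at 2.91 FPKM in the library labelled Glut2H STZ and 8.56 in that labelled Glut2H control, and the highest genes of their lists. Snw1 ranged from 23.6 to 36.9 FPKM and the ubiquitin ligase gene Nedd4 from 66.2 to 135 FPKM. Neurod1, a transcription factor gene downstream of Neurog3, was at 68.3 and 58.0 FPKM in the libraries labelled Glut2L STZ and Glut2L control, against 29.1 and 34.2 FPKM in those labelled Glut2H STZ and Glut2H control.

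**Figure D5:**
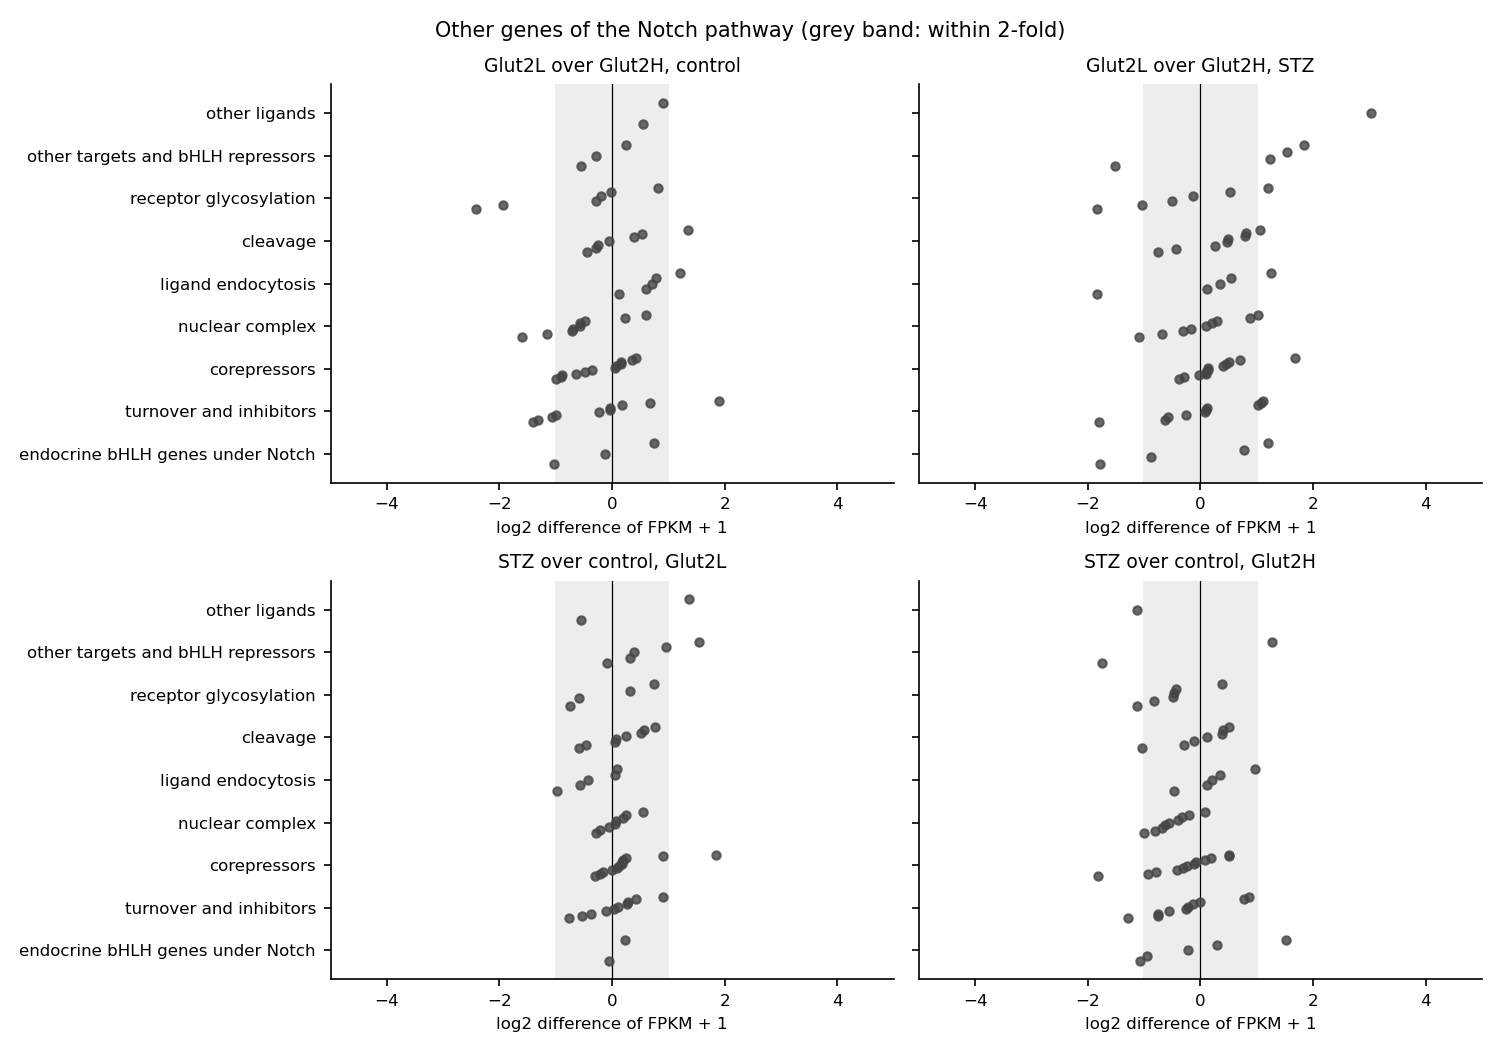
Each point is 1 measured gene of the Notch pathway that is not among the 10 members, placed by its log2 difference of FPKM plus 1 in a row for its list, with 1 panel per comparison. Most points lie in the 2-fold band, and 13 lie above it for Glut2L over Glut2H in STZ mice, against 3 in control mice. These are 22.0% and 5.26% of the points, beside 22.9% and 19.7% of all measured genes.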

How the data were processed

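Total RNA of 4 libraries was sequenced after ribosomal RNA removal with a stranded TruSeq kit, per the labels' protocols. Reads were processed with TopHat2, SAMtools and Cuffdiff on GRCm38 (mm10), per the submitters' processing notes. Their versions, annotation, library scaling and strand setting: not given in the sources used here. Per gene, the authors deposited FPKM with an interval and a status, per the file headers, and all members had a status of OK. The single-sample tables held the same FPKM, with 0 of 156680 values different.

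Libraries were grouped by their titles. The 4 comparisons used log2 of FPKM plus 1, over genes whose status was OK in both libraries and whose FPKM was 1 or more in at least 1 of them. A difference of 2-fold or more was counted. No test was possible with single libraries. The reads behind each FPKM are unknown, and the median half-width of the deposited intervals was 88.6% to 91.8% of the FPKM over rows with at least 1 FPKM. Gene positions and types are from GENCODE M21 on GRCm38, which matched 37607 rows.

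Members and lists were chosen with earlier results of these data known. Named by rule were all members, other pathway genes with at least 5 FPKM that differed at least 2-fold in both gate pairs in 1 direction or in an STZ comparison, the highest gene of each list, and the 3 nearest profiles per member with at least 5 FPKM. Duct, alpha and other endocrine marker lists were also measured. Their medians for Glut2L over Glut2H were 1.11, 0.84 and 0.69 in STZ mice and 1.05, 0.18 and 0.87 in control mice. Python 3.11.15 with pandas 2.3.3 and numpy 2.4.6 was used.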

Additional observations from a re-analysis of the deposited data

Results flagged for a closer look

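Notch4 differed in direction between gates: after STZ it was lower under the Glut2L label (0.133 FPKM, against 9.59 in control) and higher under the Glut2H label (19.8 FPKM, against 6.43 in control). The STZ effect in Glut2L minus that in Glut2H was -4.71 on the log2 scale. The difference was not tested, since each group is 1 library.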

How the results depend on the processing

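No paired analysis was possible because each group has 1 library. Of 120 summary values under 10 alternatives, 103 stayed close to the reported value. Part of this was fixed in advance: the single-sample tables hold the same FPKM, and the interval and 1.5-fold rules cannot move a median. With a pseudocount of 5, members at least 2-fold higher in the libraries labelled Glut2L numbered 0 in STZ mice (reported 2), with a median of -0.57, and 1 in control mice (reported 3). With a pseudocount of 0.1 the gate median in STZ mice was -2.27 (reported -1.64), and 1 member, Dll4, was higher after STZ in the libraries labelled Glut2L. Without a filter on low values the gate median in STZ mice was -0.70. A filter of 5 FPKM turned the gate median in control mice to 0.51 (reported -0.30), and rescaling FPKM to an equal sum turned it to 0.45, with that in STZ mice at -0.20. That rescaling moved the median of all genes to 1.18 in STZ and 0.87 in control mice, and the higher share of all calls to 85.6% and 78.6%, from 56.4% and 51.6%. Setting the median of all genes to 0 gave 43.1% and 43.0%. The trimmed sum dropped mitochondrial transcripts, the 20 rows with most FPKM and any locus shorter than 300 bp. It gave gate medians of the members of -1.66 in STZ and -0.33 in control mice, near those reported. Medians of all genes were then 0.18 and 0.11 (reported 0.23 and 0.15), and all 41 member values kept their call. Of all genes, a pseudocount of 5 called 3.44% to 9.29% per direction and the interval rule 0.320% to 4.19%, and the equal sum called 58.4% higher in STZ and 44.3% in control mice. Requiring that the deposited intervals do not overlap left 0 members higher and 2 lower between gates in STZ mice, 0 higher and 1 lower in control mice, 0 lower after STZ in the libraries labelled Glut2L and 0 higher in those labelled Glut2H. A rule of 1.5-fold gave 2 higher after STZ in each gate. Of 375 values of single members, 343 kept their call, 32 did not and 0 reversed. Of the 32, the interval rule gave 13 and the 1.5-fold rule 5, and these 2 rules change the call but not the log2 value. A pseudocount or a call rule cannot reverse the sign of a comparison. Jag2 and Dll1 lost 2-fold in both gate pairs with a pseudocount of 5, and Hey1 did too. The equal-sum shifts of the gate medians were not seen with the trimmed sum, and which of the dropped rows account for this was not tested. The cause of the other shifts was not tested. Depth, which is unknown, limits all members near 1 FPKM.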
